A study of Mus musculus with 16 samples.

Results

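The cortex of mice carrying both the 5xFAD transgenes and the Dp16 duplication was compared with the cortex of wild-type mice, over all genes. The comparison uses 8 of the 16 libraries of the study, namely every library labelled 5xFAD-Dp16 (n = 4) and every library labelled wild-type C57BL/6J (n = 4). Each group held 2 females and 2 males, all aged 9 months, and polyadenylated RNA of the brain cortex was sequenced from 1 mouse per library. The 5xFAD transgenes, among them human APP, hold mutations of familial Alzheimer's disease, and the Thy1 promoter directs them mainly to neurons. The Dp16 duplication adds a further copy of distal mouse chromosome 16, whose genes correspond to many of those on human chromosome 21 (trisomy 21 causes Down syndrome), so every gene of that segment is present in 3 copies in each Dp16 cell. The 5xFAD-Dp16 mice carry both of these alterations and the wild-type mice carry neither, so the contrast by itself does not separate one from the other. The remaining 8 libraries, 4 of 5xFAD mice and 4 of Dp16 mice, entered the same fit and are given below only for values set side by side.

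Amyloid plaques are the extracellular deposits of a peptide cut from the APP protein. Microglia, the resident macrophages of the brain, gather around plaques and switch to a state with high expression of lysosomal, lipid-handling and antigen-presentation genes, while astrocytes nearby become reactive and make more of the filament protein GFAP. Interferons act through cell-surface receptors, several of which are encoded in the duplicated segment, and turn on a shared set of antiviral and antigen-presentation genes.

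The 8 libraries held 16874481 to 22447862 counts each, and the label for sex matched the reads in 16 of 16 libraries of the study. A total of 17555 genes had enough counts to be tested. Wild-type replicate 3, a female, stood apart: the slope of its expression on gene length was -0.439 (log2 per log2 of length), against -0.112 to 0.157 in the 5xFAD-Dp16 libraries and 0.002 to 0.281 in the other 3 wild-type libraries. A negative slope means that long genes read lower relative to short genes. Some of the counts and medians that it moves are given without it as well, and others are not. Without it 9207 of 17890 genes tested had a log2 fold change (5xFAD-Dp16 over wild-type) above 0, against 7377 of 17555 with it. The labels name separate samples and say nothing of litters or cohorts, so p-values measure the spread between these samples.

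Thy1 (ENSMUSG00000032011.5, chr9:44043384-44048579 on GRCm38), whose promoter drives the transgenes, served as a check of the labels. It read 2205, 2070.2, 1896 and 1835 CPM (counts scaled to library depth, with TMM normalization) in the 5xFAD-Dp16 libraries of replicates 1 to 4, against 839, 880.1, 787 and 736 CPM in the wild-type libraries of replicates 1 to 4. All 4 transgenic libraries lay above all 4 wild-type ones, with a log2 fold change of 1.30 ± 0.14 (SE; edgeR adjusted p = 0.000651). The deposited counts do not separate transgene reads from those of the mouse genes. Mouse App (chr16:84949685-85173766), a gene of the duplicated segment, read 1986, 1851, 2357 and 1714 CPM in 5xFAD-Dp16 cortex and 1670.2, 1346, 729 and 1517 CPM in wild-type cortex. The App groups did not overlap, but wild-type replicate 3 was far below the other 3 wild-type libraries. The difference of 0.59 ± 0.24 on the log2 scale did not pass the test (edgeR adjusted p = 0.863). With a term for the length slope its edgeR adjusted p was 0.000345. App averaged 1977 ± 277 CPM in 5xFAD-Dp16, 1140 ± 172 CPM in 5xFAD, 1867 ± 454 CPM in Dp16 and 1315 ± 413 CPM in wild-type cortex (SD, n = 4 each). The part of transgene reads in these values was not tested.

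The change was almost entirely an increase, and the called genes included genes of microglia and other myeloid cells, antigen presentation, interferon response and reactive astrocytes. At an edgeR adjusted p under 0.05, 88 genes passed, or 0.501% of those tested. Of these, 87 genes were higher in 5xFAD-Dp16 cortex (0.496% of all genes tested) and 1 was lower (0.0057%). Of the higher genes, 77 differed at least 2-fold and 33 at least 4-fold, while 10 had a smaller change than 2-fold. In 85 of the 87, every 5xFAD-Dp16 library lay above every wild-type library; over all genes tested, 410 genes (2.34%) were higher without overlap. The exceptions were Ly86 and Cxcl16, for which wild-type replicate 3 read 35.4 and 4.83 CPM, above 5xFAD-Dp16 replicate 3 at 35.2 and 3.81 CPM. The 87 genes were chosen by a test on these same libraries, which large and well separated differences pass most easily. Their sizes and lack of overlap thus follow in part from the choice. At an unadjusted p under 0.05 there were 794 genes (4.52%), and DESeq2 called 228 genes (1.3%), which include all 88. With a term for the length slope, edgeR called 358 genes (2.04%), among them 87 of the 88. In a fit of the 8 compared libraries alone edgeR called 9. With 1 of these 8 left out of the full fit the count ran from 40 (without wild-type replicate 1) to 106 (without wild-type replicate 3). It was 43 without wild-type replicate 2, and 49 and 46 without the 5xFAD-Dp16 replicates 1 and 4. Of the 88 genes, 54 stood on a gene list described below or in the duplicated segment, and 34 on none.

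Among higher genes whose mean log2 CPM reached at least 1 and whose groups did not overlap, the 12 of largest fold change were Cst7, Clec7a, C4b, Cd74, Ccl6, Serpina3n, Gfap, Lgals3bp, Samsn1, Tlr2, Cd52 and Slc11a1. Cst7 (ENSMUSG00000068129.5, chr2:150570415-150578944), which encodes cystatin F, an inhibitor of lysosomal proteases, read 115, 48.1, 34.9 and 70.0 CPM in 5xFAD-Dp16 libraries and 0.353, 0.258, 1.51 and 0.893 CPM in wild-type libraries. It was nearly silent in wild-type cortex, and its log2 fold change was 6.40 ± 0.61 (edgeR adjusted p = 0.000403, the smallest of all genes). Clec7a, the dectin-1 receptor, read 65.4, 35.1, 14.9 and 52.7 CPM in 5xFAD-Dp16 and 0.235, 0.362, 2.23 and 1.27 CPM in wild-type libraries, a log2 fold change of 5.26 ± 0.62 (edgeR adjusted p = 0.000796). Gfap (ENSMUSG00000020932.14, chr11:102887336-102900912), the filament protein of astrocytes, read 1659, 1106, 669 and 1415 CPM in 5xFAD-Dp16 and 198, 197, 289.8 and 203 CPM in wild-type libraries. Its log2 fold change was 2.39 ± 0.25 (edgeR adjusted p = 0.000651), and the lowest 5xFAD-Dp16 library still read above the highest wild-type one. In each of these 3 genes the lowest 5xFAD-Dp16 library was replicate 3, a male, and the highest was replicate 1, a female. Wild-type replicate 3 was the highest wild-type library in each.

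**Figure D1:**
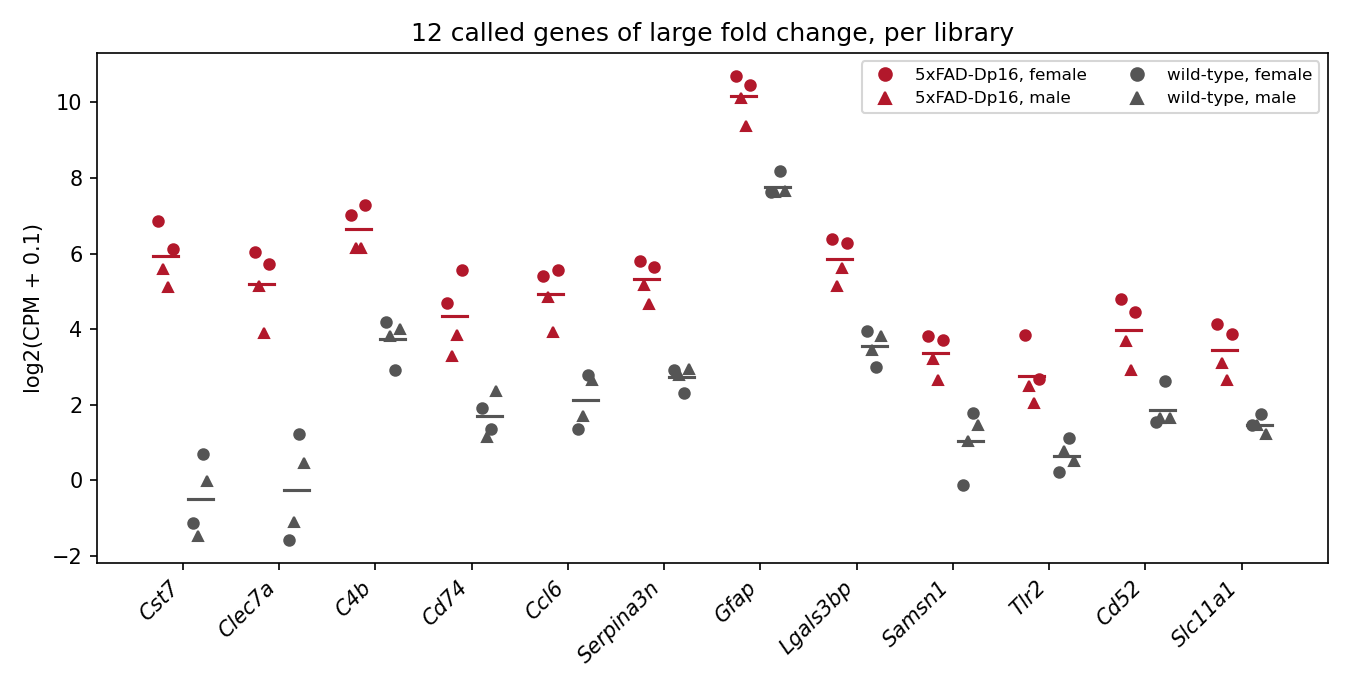
Level in each library of the 12 higher genes of largest fold change among those whose mean log2 CPM reached at least 1 without overlap, as log2(CPM + 0.1), with 5xFAD-Dp16 left of wild-type; circles are females, triangles are males and lines are means of the log values. The 4 libraries of 5xFAD-Dp16 lie above the 4 wild-type libraries in every panel, with Cst7 at 34.9 to 115 CPM against 0.258 to 1.51 CPM.

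Several further genes were all but absent from wild-type cortex. Atp6v0d2, a subunit of the lysosomal proton pump, had 37, 16, 10 and 26 counts in the 5xFAD-Dp16 libraries and none in any wild-type library. Set against a floor of 3 counts over the wild-type group, that is at least 26.1-fold higher. Itgax, the integrin CD11c, read 21.0, 4.92, 5.81 and 7.95 CPM in 5xFAD-Dp16 and 0.176, 0.103, 0 and 0.282 CPM in wild-type libraries (log2 fold change 5.85 ± 0.65, edgeR adjusted p = 0.000651). Hcar2, the receptor for niacin and the ketone body beta-hydroxybutyrate, had 113, 39, 19 and 96 counts in 5xFAD-Dp16 and 0, 1, 0 and 2 counts in wild-type libraries, a ratio of 78.4 (95% counting interval 26.5 to 383). Tnfsf8, the CD30 ligand, had 193 counts over the 5xFAD-Dp16 group and 3 over the wild-type group, a ratio of 56.7 (19.1 to 277). Gpr65, a proton-sensing receptor, had 126 and 3 counts, a ratio of 37.0 (12.4 to 182), and Ctse, the protease cathepsin E, had 78 and 1, a ratio of 68.7 (11.98 to 2749). These intervals and the floor cover counting error only. The nonagouti gene (symbol a), which controls coat pigment, had 49, 83, 45 and 46 counts in 5xFAD-Dp16 libraries and 0, 0, 0 and 2 in wild-type libraries, a ratio of 98.3 (26.9 to 816; edgeR adjusted p = 0.000651). Its level averaged 2.63 ± 0.73 CPM in 5xFAD-Dp16, 0 in all 4 5xFAD libraries, 2.96 ± 0.43 CPM in Dp16 and 0.0235 ± 0.047 CPM in wild-type cortex (SD, n = 4 each), so it was read in every library with the duplication; the gene itself lies on chromosome 2. The labels give the strain of the wild-type mice as C57BL/6J and no strain background for the Dp16 or 5xFAD-Dp16 mice. A difference of strain, at this gene or at any other, thus cannot be told apart from an effect of the genotypes.

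Genes of plaque-associated microglia were higher. Of 38 tested members of that list, 11 were called higher and 37 had a log2 fold change above 0, with a median of 1.34; over all genes tested, 7377 (42.0%) were above 0 and the median was -0.04. Beside Cst7, Clec7a, Itgax, Atp6v0d2 and Hcar2, the called members were Trem2, Ccl3, Ccl6, Cybb, Cd52 and Capg. Trem2, the lipid-sensing receptor through which microglia enter the plaque-associated state, read 159, 96.0, 62.7 and 141 CPM in 5xFAD-Dp16 and 17.8, 22.9, 47.1 and 28.2 CPM in wild-type libraries. The groups stayed apart, although wild-type replicate 3 read well above the other 3 wild-type libraries, and the log2 fold change was 1.95 ± 0.31 (edgeR adjusted p = 0.00721). Tyrobp, the signalling partner of Trem2, read 150, 104, 62.2 and 143 CPM in 5xFAD-Dp16 and 21.2, 28.9, 77.2 and 33.5 CPM in wild-type libraries. For Tyrobp the groups overlapped through wild-type replicate 3, and the gene did not pass (1.4998 ± 0.34, edgeR adjusted p = 0.0818); without that library the log2 fold change was 1.96 and the adjusted p 0.00475. The chemokine gene Ccl3 read 9.28, 2.95, 1.90 and 7.30 CPM in 5xFAD-Dp16 and 0.294, 0.207, 0 and 0.188 CPM in wild-type libraries (4.69 ± 0.65, edgeR adjusted p = 0.00246). Cybb, the catalytic subunit of the phagocyte NADPH oxidase, read 6.46, 3.36, 3.24 and 8.35 CPM in 5xFAD-Dp16 and 0.411, 0.155, 0 and 0.752 CPM in wild-type libraries (3.80 ± 0.66, edgeR adjusted p = 0.0138).

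Genes shared by myeloid cells in general were higher too. Of 28 tested pan-myeloid genes, 12 were called higher and all 28 were above 0, with a median log2 fold change of 1.13. Ctss, the protease cathepsin S, read 509.8, 289, 226 and 427 CPM in 5xFAD-Dp16 and 126, 117, 143 and 129 CPM in wild-type libraries (1.46 ± 0.19, edgeR adjusted p = 0.00235). Cd68, a lysosomal membrane protein of macrophages, read 84.3, 34.4, 26.2 and 50.5 CPM in 5xFAD-Dp16 and 13.4, 11.4, 10.99 and 12.2 CPM in wild-type libraries (1.93 ± 0.26, edgeR adjusted p = 0.00235). The summed level of the pan-myeloid list was 2212, 1302, 1022 and 1877 CPM in 5xFAD-Dp16 libraries, against 607, 573, 816 and 631 CPM in wild-type libraries, without overlap. In bulk tissue, more cells of a type and more RNA per cell cannot be told apart. Homeostatic microglial genes gave a smaller shift: 1 of 23 was called, 21 were above 0 and the median was 0.44. The called member was Fcrls, an Fc receptor-like protein, at 86.1, 56.7, 46.9 and 67.9 CPM in 5xFAD-Dp16 and 34.1, 30.9, 26.9 and 30.7 CPM in wild-type libraries (1.03 ± 0.21, edgeR adjusted p = 0.0412); without wild-type replicate 3 no member of this list passed, with 8 at an unadjusted p under 0.05. Siglech, a microglial lectin, had a log2 fold change of 0.80 ± 0.19 (edgeR adjusted p = 0.101), and Spi1, which encodes the myeloid transcription factor PU.1, one of 0.94 ± 0.23 (edgeR adjusted p = 0.123).

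Some lysosomal genes were higher. Of 43 tested, 5 were called higher, 36 were above 0 and the median log2 fold change was 0.35; 11 were called by DESeq2, 19 with the length slope and 8 without wild-type replicate 3. Ctsd, the main aspartic protease of the lysosome, read 1291, 755, 580 and 899 CPM in 5xFAD-Dp16 and 314, 332, 433 and 320.2 CPM in wild-type libraries (1.30 ± 0.20, edgeR adjusted p = 0.00721). Hexa, the alpha subunit of the ganglioside-degrading hexosaminidase, read 166, 121, 94.7 and 125 CPM in 5xFAD-Dp16 and 63.8, 75.2, 82.5 and 62.0 CPM in wild-type libraries (0.82 ± 0.16, edgeR adjusted p = 0.0246). Of 18 tested microglial genes linked to the risk of Alzheimer's disease, 17 were above 0 with a median of 0.56, and Trem2 was the called one; DESeq2 called 3. Without wild-type replicate 3, edgeR called 3 of them, 14 were above 0 and the median was 0.38. Markers of other immune cells gave no call. Of 16 listed lymphocyte genes 2 had enough counts to be tested, with no call by edgeR or DESeq2 and none at an unadjusted p under 0.05. Of 10 border-associated macrophage genes none was called by edgeR or DESeq2, and 2 were lower at an unadjusted p under 0.05. Of 4 tested granulocyte and monocyte genes none was called by either tool, and 1 was higher at an unadjusted p under 0.05.

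Genes of antigen presentation by MHC class I were higher. B2m (ENSMUSG00000060802.8, chr2:122147686-122153083), the light chain of every class I molecule, read 428, 256, 245 and 389 CPM in 5xFAD-Dp16 and 147, 123, 134 and 117 CPM in wild-type libraries (1.31 ± 0.15, edgeR adjusted p = 0.000651). The heavy chain H2-D1 read 182, 106, 91.8 and 192 CPM in 5xFAD-Dp16 and 47.7, 39.8, 37.1 and 54.0 CPM in wild-type libraries (1.62 ± 0.24, edgeR adjusted p = 0.00498). H2-K1 (1.37 ± 0.28, edgeR adjusted p = 0.0417) and the peptide transporter Tap1 (1.92 ± 0.39, edgeR adjusted p = 0.0412) passed as well. These 4 were called among 17 tested class I genes, 16 of which were above 0, with a median log2 fold change of 0.95; without wild-type replicate 3 the count was 2. Among 6 tested class II genes, all above 0 with a median of 1.55, Cd74, the invariant chain, was called. Cd74 read 25.8, 9.71, 14.3 and 47.6 CPM in 5xFAD-Dp16 and 3.64, 2.12, 2.47 and 5.07 CPM in wild-type libraries (2.81 ± 0.52, edgeR adjusted p = 0.0203; 0.059 with the length slope). The class II chains H2-Aa (2.34 ± 0.59, edgeR adjusted p = 0.129) and H2-Ab1 (1.72 ± 0.48, edgeR adjusted p = 0.232) did not pass. Values of the H2 genes, and of C4b with its near-identical copy C4a, are uncertain, since reads can be split between copies.

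Complement genes were called in 7 of 21 tested, with a median log2 fold change of 0.67. The C1q subunits, which start the classical pathway, rose by similar amounts: C1qa read 397, 243, 183 and 349 CPM in 5xFAD-Dp16 and 109, 106, 155 and 109.6 CPM in wild-type libraries (1.25 ± 0.17, edgeR adjusted p = 0.00235), with C1qc at 1.26 ± 0.17 (0.00246) and C1qb at 1.16 ± 0.18 (0.00721). C4b, which acts downstream of C1q, read 131, 70.4, 70.5 and 156 CPM in 5xFAD-Dp16 and 17.98, 13.96, 7.48 and 15.98 CPM in wild-type libraries (2.81 ± 0.41, edgeR adjusted p = 0.00358). Itgb2, the beta chain of the leukocyte complement receptors, C3ar1, the receptor for the C3a fragment, and Itgax completed the called set. Among inflammatory cytokine and NF-kB genes, 5 of 24 were called and 23 were above 0 (median 0.73): Ccl3, Cxcl10, Cxcl16 and the Toll-like receptors Tlr2 and Tlr13. Tlr2 read 14.2, 5.50, 4.06 and 6.31 CPM in 5xFAD-Dp16 and 1.06, 1.60, 2.05 and 1.32 CPM in wild-type libraries (2.22 ± 0.37, edgeR adjusted p = 0.0105).

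Interferon-stimulated genes had estimates above 0 in nearly all cases, and few passed the test singly. Of 41 tested, 40 had a log2 fold change above 0, 31 were higher at an unadjusted p under 0.05 and 7 were called, with a median of 1.19. The called genes were Irf7 and Irf9, transcription factors of the interferon response, the GTPase gene Mx1, Trim30a, and Usp18, which removes the ubiquitin-like ISG15. The others were Lgals3bp, a secreted glycoprotein, and Cxcl10, a chemokine that draws T cells. Lgals3bp read 83.6, 35.3, 48.6 and 77.2 CPM in 5xFAD-Dp16 and 15.5, 10.9, 7.91 and 13.96 CPM in wild-type libraries (2.26 ± 0.26, edgeR adjusted p = 0.000723). Irf7 read 12.8, 6.62, 5.66 and 12.6 CPM in 5xFAD-Dp16 and 3.17, 2.53, 2.54 and 2.87 CPM in wild-type libraries (1.67 ± 0.30, edgeR adjusted p = 0.0163). Cxcl10 read 4.35, 2.51, 0.977 and 3.13 CPM in 5xFAD-Dp16 and 0.47, 0.207, 0.423 and 0.188 CPM in wild-type libraries (3.08 ± 0.51, edgeR adjusted p = 0.00991). The lowest of the 5xFAD-Dp16 libraries thus read above the highest wild-type library in each of the 3 genes. The summed level of the list was 479.5, 301, 334 and 478 CPM in 5xFAD-Dp16 libraries and 172, 155, 185 and 213 CPM in wild-type libraries.

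**Figure D2:**
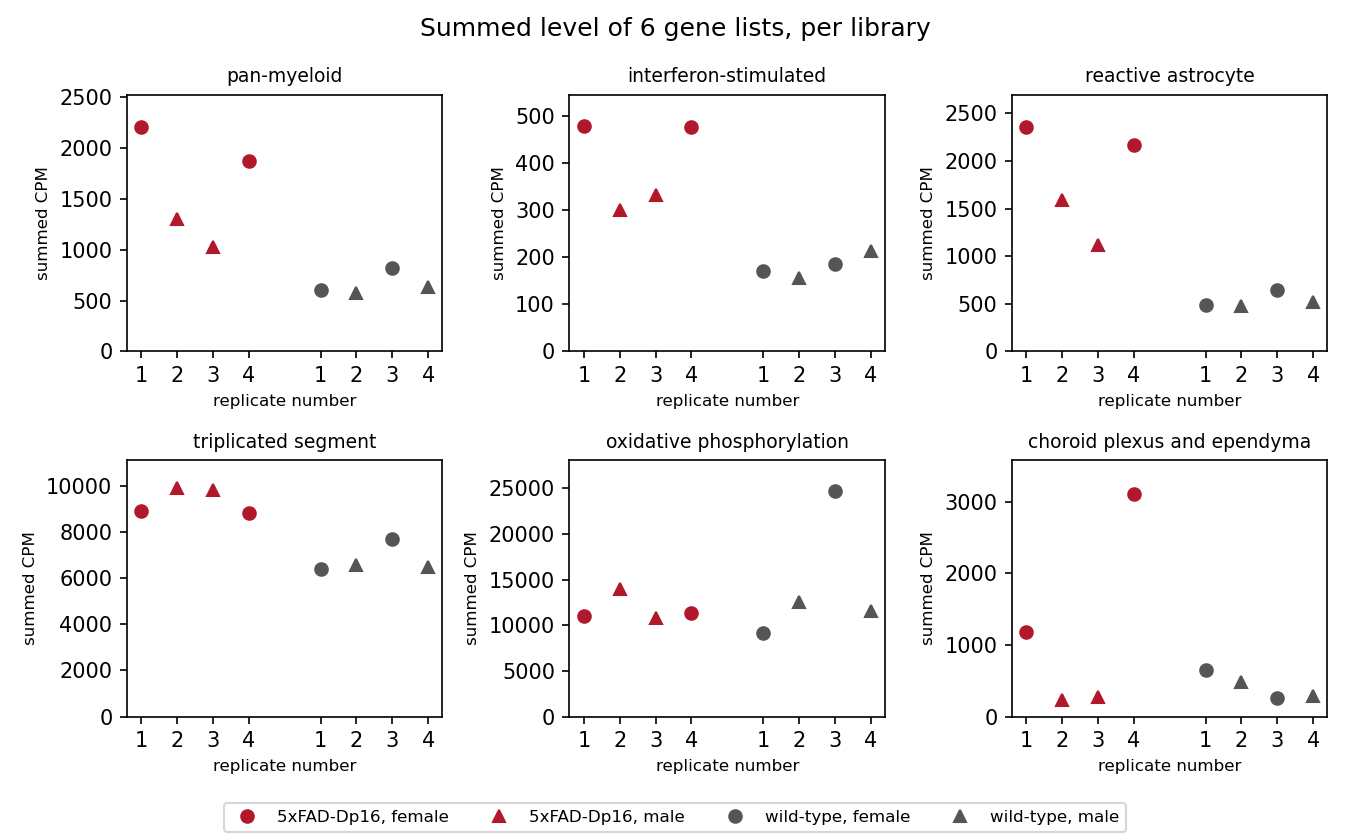
Summed CPM of 6 gene lists in each library, with 5xFAD-Dp16 left of wild-type, circles for females and triangles for males. The pan-myeloid sum ran from 1022 to 2212 CPM in 5xFAD-Dp16 and from 573 to 816 CPM in wild-type libraries, and the choroid plexus sum stood at 3107 CPM in 1 5xFAD-Dp16 female against 229 to 1177 CPM in the other 3.

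The promoters of 5 called genes are shown, because they hold motifs of interferon regulatory factors, NF-kB or PU.1, transcription factors of immune cells. Each window runs from 250 bases before to 50 bases after a start that RefSeq (GRCm38.p6) lists for the gene. It is written 5' to 3' on the gene's own strand, and has its motif matches in capitals. The motifs searched on both strands, with none overlapping another in these windows, were the interferon-stimulated response element GAAANNGAAA, the NF-kB site GGGANTTNCC and the PU.1 core GAGGAAG. The B2m window is chr2:122147437-122147736 (plus strand) and holds a response element and an NF-kB match. The Ctss window is chr3:95526536-95526835 (plus strand) and holds a response element and, on the opposite strand, a PU.1 core. The Cxcl10 window is chr5:92348840-92349139 (minus strand) and holds a response element and an NF-kB match. The Cybb window is chrX:9469275-9469574 (minus strand) and holds 3 response elements. The Samsn1 window is chr16:75909217-75909516 (minus strand), within the duplicated segment, and holds a PU.1 core on each strand. This RefSeq start lies inside the gene's full span (chr16:75858793-76022281) and not at its outer end.
B2m: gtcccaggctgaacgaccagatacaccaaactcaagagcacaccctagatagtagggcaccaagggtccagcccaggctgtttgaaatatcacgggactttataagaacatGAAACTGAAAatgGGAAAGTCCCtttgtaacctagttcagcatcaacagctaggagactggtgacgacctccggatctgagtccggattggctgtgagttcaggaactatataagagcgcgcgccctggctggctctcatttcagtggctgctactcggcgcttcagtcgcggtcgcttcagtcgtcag
Ctss: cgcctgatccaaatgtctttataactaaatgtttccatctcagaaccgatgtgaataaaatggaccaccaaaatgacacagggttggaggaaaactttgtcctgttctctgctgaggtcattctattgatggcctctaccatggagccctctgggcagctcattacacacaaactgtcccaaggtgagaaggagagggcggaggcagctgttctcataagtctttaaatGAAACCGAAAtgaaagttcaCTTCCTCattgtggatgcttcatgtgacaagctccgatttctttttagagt
Cxcl10: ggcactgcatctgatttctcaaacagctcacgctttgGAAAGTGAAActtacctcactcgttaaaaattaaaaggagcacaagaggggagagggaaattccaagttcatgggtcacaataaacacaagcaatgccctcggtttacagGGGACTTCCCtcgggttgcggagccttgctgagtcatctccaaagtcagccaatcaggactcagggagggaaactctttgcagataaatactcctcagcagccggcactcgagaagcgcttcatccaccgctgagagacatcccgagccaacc
Cybb: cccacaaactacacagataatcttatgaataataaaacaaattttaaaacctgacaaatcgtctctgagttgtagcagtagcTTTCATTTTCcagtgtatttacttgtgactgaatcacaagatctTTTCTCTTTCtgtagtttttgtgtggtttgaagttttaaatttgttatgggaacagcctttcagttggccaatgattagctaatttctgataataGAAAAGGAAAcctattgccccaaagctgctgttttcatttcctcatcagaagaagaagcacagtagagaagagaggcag
Samsn1: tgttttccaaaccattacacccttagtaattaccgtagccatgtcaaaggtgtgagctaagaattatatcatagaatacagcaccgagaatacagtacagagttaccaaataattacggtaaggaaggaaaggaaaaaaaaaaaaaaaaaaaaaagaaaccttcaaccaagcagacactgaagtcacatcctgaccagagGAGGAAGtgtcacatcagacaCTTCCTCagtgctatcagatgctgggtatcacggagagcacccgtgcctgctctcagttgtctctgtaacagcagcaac

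Of the 87 higher genes, 65 had such a window. The response element was found in 7 of them (10.8%), those of B2m, Ctss, Cxcl10, Phf11b, Cybb, Trim30a and Ifi211, against 2.97% of the 12556 tested genes with a window and 3.44% of all 32851 windows. The PU.1 core was found in 16 (24.6%), against 13.3% of tested genes and 13.6% of all windows, and the NF-kB site in 3 (4.62%), against 1.19% and 1.2%. The lysosomal CLEAR core TCACGTGA was found in 2 (3.08%), against 1.73% and 0.974%, and the STAT site TTCNNNGAA in 4 (6.15%), against 6.7% and 8.3%. A match describes the letters of the window and was not tested as a binding site.

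Reactive astrocyte genes were called in 6 of 32 tested, with 28 above 0 and a median log2 fold change of 0.60. Beside Gfap, C4b, Cxcl10 and H2-D1 these were Serpina3n, a secreted protease inhibitor, and Aspg, an asparaginase. Serpina3n read 55.6, 35.7, 25.4 and 50.4 CPM in 5xFAD-Dp16 and 7.46, 6.82, 4.83 and 7.66 CPM in wild-type libraries, without overlap (2.56 ± 0.29, edgeR adjusted p = 0.000651). Among 22 homeostatic astrocyte genes none was called by edgeR or DESeq2 and none reached an unadjusted p under 0.05; their median was -0.02, or -0.16 without wild-type replicate 3, and the water channel gene Aqp4 had a log2 fold change of 0.30 ± 0.16 (edgeR adjusted p = 1). Of 14 genes of disease-associated oligodendrocytes, 4 were called (C4b, Serpina3n, H2-D1 and B2m), each also on another list here. Of 23 oligodendrocyte and myelin genes none was called by edgeR or DESeq2, with 1 higher and 1 lower at an unadjusted p under 0.05 and a median of -0.07.

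Examples of the 34 called genes that stood on no list follow, by what each is known for. Mpeg1, the pore-forming perforin-2 of macrophages, read 199.95, 104, 85.7 and 142 CPM in 5xFAD-Dp16 and 36.3, 36.1, 29.0 and 47.6 CPM in wild-type libraries (1.80 ± 0.24, edgeR adjusted p = 0.00235). Slc11a1, the metal transporter of phagosomes, read 17.5, 8.46, 6.22 and 14.5 CPM in 5xFAD-Dp16 and 2.64, 2.64, 3.26 and 2.26 CPM in wild-type libraries (2.04 ± 0.27, edgeR adjusted p = 0.00235). Naip2 and Naip5, sensors of bacterial flagellin and secretion systems that act with the inflammasome, rose by 1.86 ± 0.25 and 1.70 ± 0.35 on the log2 scale. Ifi204 and Ifi211, interferon-inducible members of the DNA-sensing PYHIN family, rose by 3.13 ± 0.52 and 3.66 ± 0.74, and the interferon-inducible Gbp6, Sp110 and Phf11b by 2.26 ± 0.43, 1.48 ± 0.28 and 2.45 ± 0.41. The inhibitory receptor genes Lag3 (1.44 ± 0.28) and Pdcd1 (4.23 ± 0.85), best known from T cells, were called, while 2 of the 16 listed lymphocyte genes had enough counts to be tested. Pdcd1 read 3.86, 1.16, 0.771 and 3.73 CPM in 5xFAD-Dp16 and 0.0588, 0, 0 and 0.329 CPM in wild-type libraries. Receptors known from leukocytes included Cd14, the co-receptor for endotoxin (1.84 ± 0.30), Slamf9 (1.80 ± 0.31), Ly9 (2.60 ± 0.55), Siglecf (2.05 ± 0.41), Milr1 (3.27 ± 0.65) and Cd38, an NAD-consuming ectoenzyme (1.07 ± 0.22). Genes of signalling and adhesion inside leukocytes included Ptpn6, the phosphatase SHP-1 (1.84 ± 0.30), Plek (1.24 ± 0.22), Cyth4 (1.14 ± 0.21), Fermt3 (0.99 ± 0.19) and Parvg (0.86 ± 0.17). Slc14a1, a urea transporter, read 21.1, 21.5, 16.1 and 26.7 CPM in 5xFAD-Dp16 and 8.82, 9.10, 6.70 and 10.8 CPM in wild-type libraries (1.25 ± 0.22, edgeR adjusted p = 0.0147).

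Genes of the duplicated segment (chr16:75540514-97962622, from Lipi to Zbtb21) were higher in nearly all cases, but few passed the test one by one. The tables list 384 genes there, of which 198 had no count in any of the 8 libraries and 109 could be tested. Of these 109, 98 had a log2 fold change above 0 and the median was 0.51 (quartiles 0.34 and 0.65), which is a 1.42-fold higher level; 7 were called by edgeR, 18 by DESeq2, 54 with the length slope and none in a fit of the 8 compared libraries alone, where 34 were at an unadjusted p under 0.05. Without wild-type replicate 3, 14 of 110 were called and the median was 0.61. With any other of the 8 compared libraries left out singly 2 to 5 were called, with 2 without 5xFAD-Dp16 replicate 1 and 2 without wild-type replicate 2. Of the 426 genes tested on chromosome 16 outside the segment, none was called by edgeR and 4 by DESeq2, with 13 higher and 3 lower at an unadjusted p under 0.05 and a median of -0.03. In each 5xFAD-Dp16 library the median over segment genes, relative to the wild-type mean, was 0.44, 0.49, 0.44 and 0.45 on the log2 scale, so these libraries differed little from each other, against -0.07, -0.07, 0.16 and -0.08 in the wild-type libraries.

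Of the 7 called segment genes, 5 had log2 fold changes of 0.66 to 1.05, above the log2 of 3/2 that the ratio of gene copies gives. The test passes large estimates most easily, and the median of all 109 tested segment genes was 0.51. Among the 5 were the interferon receptor chains Ifnar1 and Ifnar2. Ifnar1 (chr16:91485238-91507441) read 52.6, 50.5, 55.6 and 53.5 CPM in 5xFAD-Dp16 and 32.1, 32.5, 22.7 and 38.9 CPM in wild-type libraries (0.76 ± 0.14, edgeR adjusted p = 0.0165). Ifnar2 (chr16:91372783-91405589) read 40.4, 24.8, 25.4 and 24.1 CPM in 5xFAD-Dp16 and 14.2, 12.6, 12.3 and 16.02 CPM in wild-type libraries (1.05 ± 0.19, edgeR adjusted p = 0.015), with 1 5xFAD-Dp16 library well above the other 3. The other receptor chains of the segment, Il10rb (0.65 ± 0.15, edgeR adjusted p = 0.077) and Ifngr2 (0.67 ± 0.16, edgeR adjusted p = 0.117), had estimates of like size and did not pass. Jam2 (chr16:84774123-84825928), a junctional adhesion molecule, read 98.3, 102, 108 and 113 CPM in 5xFAD-Dp16 and 61.2, 51.2, 62.9 and 60.5 CPM in wild-type libraries (0.84 ± 0.13, edgeR adjusted p = 0.00721). Rcan1 (chr16:92391953-92470867), which inhibits calcineurin, read 96.1, 96.3, 109 and 98.4 CPM in 5xFAD-Dp16 and 65.2, 70.9, 52.8 and 64.2 CPM in wild-type libraries (0.66 ± 0.14, edgeR adjusted p = 0.0404; 0.0508 without wild-type replicate 3). Dnajc28, a member of the DnaJ chaperone family, read 26.3, 31.0, 26.7 and 25.6 CPM in 5xFAD-Dp16 and 15.98, 18.2, 18.2 and 13.5 CPM in wild-type libraries (0.73 ± 0.15, edgeR adjusted p = 0.0348).

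The other called segment genes, Mx1 and Samsn1, had far larger fold changes. Mx1 (chr16:97447035-97462907), also an interferon-stimulated gene, read 3.59, 1.39, 1.08 and 3.13 CPM in 5xFAD-Dp16 and 0.118, 0.207, 0.604 and 0.188 CPM in wild-type libraries (2.96 ± 0.53, edgeR adjusted p = 0.0165). Samsn1 (chr16:75858793-76022281), an adaptor protein of blood cells, read 14.1, 9.13, 6.22 and 13.1 CPM in 5xFAD-Dp16 and 0.823, 1.96, 3.32 and 2.63 CPM in wild-type libraries (2.25 ± 0.36, edgeR adjusted p = 0.00775). For Samsn1 the level averaged 10.6 ± 3.66 CPM in 5xFAD-Dp16, 11.1 ± 1.51 CPM in 5xFAD, 3.05 ± 0.86 CPM in Dp16 and 2.18 ± 1.06 CPM in wild-type cortex, whereas Ifnar1 averaged 53.0 ± 2.096, 34.01 ± 1.54, 48.5 ± 4.08 and 31.5 ± 6.68 CPM in the same order (SD, n = 4 each). Segment genes listed for neuronal or nuclear roles did not pass singly in the full fit without a length term. Of 13 synaptic, channel and neuronal genes of the segment 12 were above 0 with a median of 0.53, and none was called by edgeR or DESeq2, with 4 at an unadjusted p under 0.05. Of 22 chromatin and transcription genes 21 were above 0 with a median of 0.52, and none was called by edgeR, 4 by DESeq2 and 11 at an unadjusted p under 0.05. The kinase gene Dyrk1a (0.55 ± 0.13, edgeR adjusted p = 0.092) and the ubiquitin ligase gene Ttc3 (0.49 ± 0.13, edgeR adjusted p = 0.151) did not pass either. Of 12 protein quality control genes of the segment 2 were called (median 0.50), of 9 adhesion and matrix genes 1 (0.60) and of 18 metabolism and redox genes 1 (0.40). Without wild-type replicate 3 the counts were 3, 2 and 3, and 1 neuronal and 1 chromatin gene of the segment were called. The medians of the neuronal, chromatin, protein quality control, adhesion and metabolism genes were then 0.33, 0.54, 0.66, 0.52 and 0.69. With the length slope and all libraries edgeR called 6, 11, 11, 3 and 14 genes of these lists, in the same order.

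**Figure D3:**
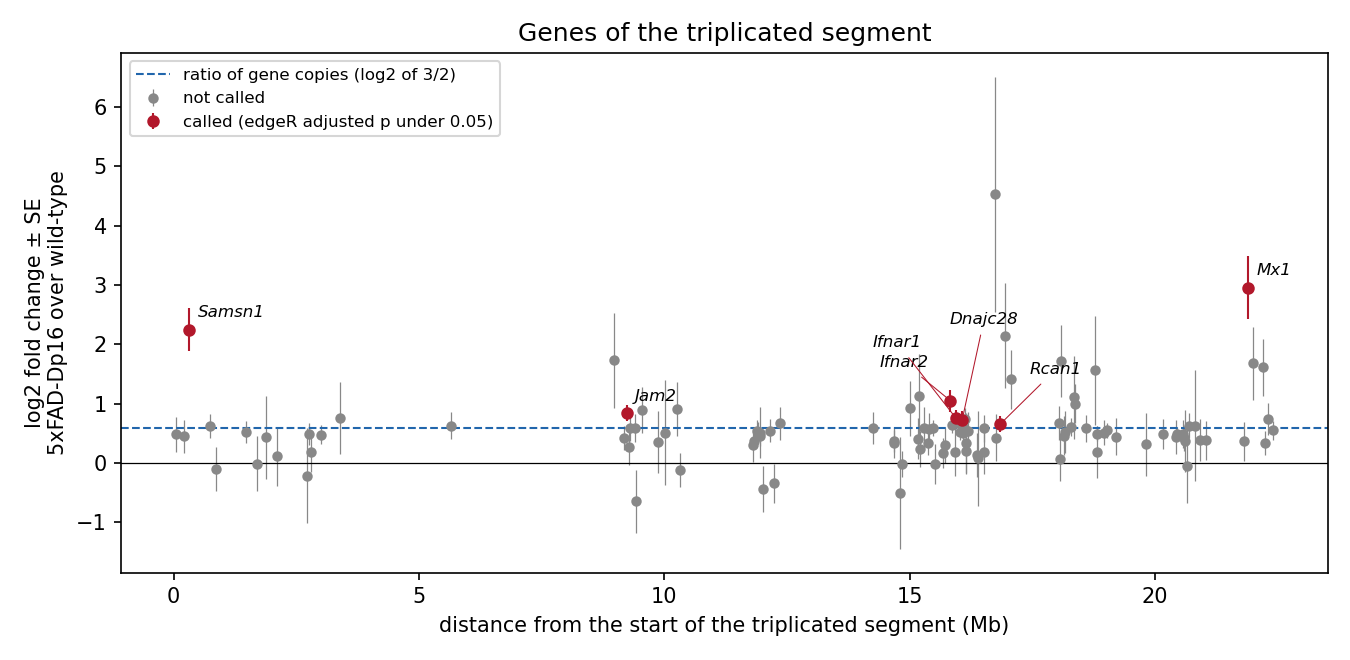
Log2 fold change of 5xFAD-Dp16 over wild-type, with its standard error, for the 109 tested segment genes against the distance from the segment's start in Mb; the 7 called genes are labelled and the dashed line marks log2 of 3/2. Most genes lie near the line, while Samsn1 (2.25) and Mx1 (2.96) lie far above it. The highest unlabelled point, Kcne2, has a wide error (4.53 ± 1.98) and was not called. Kcne2 also stands on the list of choroid plexus and ependymal genes described below.

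Neuronal and endothelial gene lists gave no call with all libraries. Of 42 tested synapse genes none was called by edgeR or DESeq2 and none reached an unadjusted p under 0.05, with a median log2 fold change of -0.05; without wild-type replicate 3 the median was -0.21 and 1 gene was above 0. Of 26 excitatory neuron and layer genes and 30 inhibitory neuron genes none was called by edgeR or DESeq2, with medians of -0.11 and -0.05 and with 1 and 3 genes at an unadjusted p under 0.05. Without wild-type replicate 3 the excitatory median was -0.29 with 3 genes above 0, and 1 inhibitory neuron gene was called. Among 19 immediate early genes, which neuronal activity turns on, 1 was above 0 and the median was -0.28, with 1 at an unadjusted p under 0.05 and none called by either tool; without wild-type replicate 3 none was above 0 and the median was -0.52. Of 19 endothelial genes none was called by either tool, with 1 at an unadjusted p under 0.05 and a median of -0.02, or -0.26 without wild-type replicate 3. No gene was called by edgeR among 15 striatal neuron, 11 oligodendrocyte precursor, 26 stress response, 21 amyloid production and clearance, 26 lipid transport and 16 tau and tau kinase genes, whose medians lay between -0.01 and 0.06. DESeq2 called 2 of the lipid transport genes, 1 of the tau genes and none of the other 4 lists, and 5 lipid transport genes and at most 1 gene of any other of these lists reached an unadjusted p under 0.05. Without wild-type replicate 3 these medians lay between -0.21 and 0.16, and 1 lipid transport gene was called by edgeR. Genes of oxidative phosphorylation and of the proteasome changed sides with 1 library. In the full set 2 of 35 oxidative phosphorylation genes and 1 of 31 proteasome genes were above 0, with medians of -0.34 and -0.25; without wild-type replicate 3 these were 33 and 28 genes and medians of 0.15 and 0.18. None of either list was called by edgeR or DESeq2 or reached an unadjusted p under 0.05 with all libraries. The summed oxidative phosphorylation level was 10978, 13982, 10831 and 11357 CPM in 5xFAD-Dp16 libraries, against 9179, 12539, 24732 and 11596 CPM in wild-type libraries, so wild-type replicate 3 stood above all others.

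**Figure D4:**
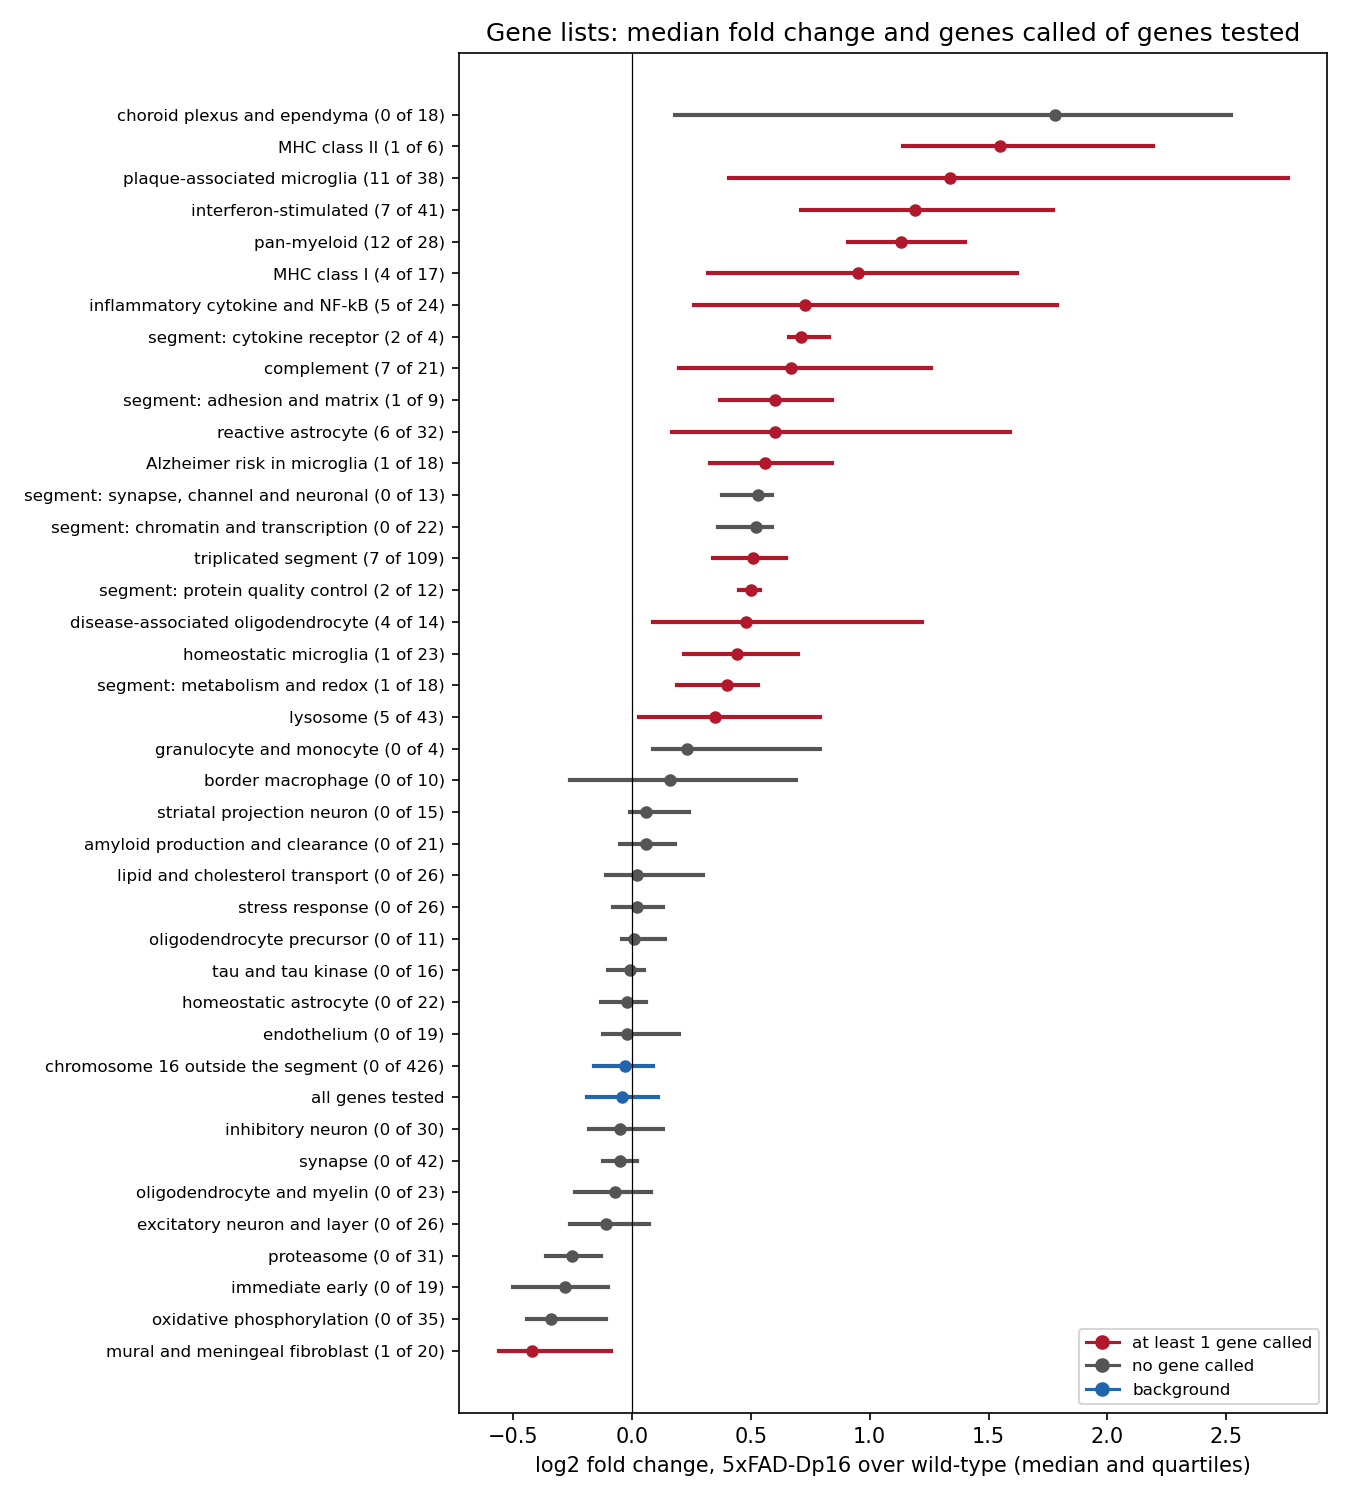
Median log2 fold change of 5xFAD-Dp16 over wild-type for each gene list, with bars from the lower to the upper quartile and the number called of the number tested; red marks lists with at least 1 called gene, grey lists with none, and blue all genes tested and chromosome 16 outside the segment; the lymphocyte list, with 2 tested genes, is left out. The lists farthest to the right are choroid plexus (1.78), MHC class II (1.55) and plaque-associated microglia (1.34). The excitatory neuron, inhibitory neuron, synapse, myelin and endothelial lists lie within 0.11 of 0. Without wild-type replicate 3 the excitatory, synapse and endothelial medians were -0.29, -0.21 and -0.26.

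Myoc (ENSMUSG00000026697.10, chr1:162639155-162649693), which encodes the secreted glycoprotein myocilin, was the called gene that fell. It read 10.3, 5.55, 5.19 and 12.5 CPM in 5xFAD-Dp16 and 18.5, 12.6, 30.8 and 21.0 CPM in wild-type libraries. The groups came within a fraction of a CPM of each other without overlapping, and the log2 fold change was -1.35 ± 0.26 (edgeR adjusted p = 0.0261). Wild-type replicate 3 was the highest library, and without it the log2 fold change was -1.19 with an adjusted p of 0.0508. Across groups Myoc averaged 8.40 ± 3.61 CPM in 5xFAD-Dp16, 21.2 ± 3.98 CPM in 5xFAD, 12.9 ± 3.75 CPM in Dp16 and 20.7 ± 7.58 CPM in wild-type cortex (SD, n = 4 each). It stood on the list of mural and meningeal fibroblast genes, of which 3 of 20 were above 0 with a median of -0.42. Choroid plexus and ependymal genes, which mark tissue of the ventricles, had the highest median of any list at 1.78, with 15 of 18 above 0, yet none was called by edgeR or DESeq2 and 4 were at an unadjusted p under 0.05. Their summed level was 1177, 229, 272 and 3107 CPM in 5xFAD-Dp16 libraries and 646, 485, 265 and 293 CPM in wild-type libraries. It was thus high in both 5xFAD-Dp16 females and low in both males. Clic6, an ion channel protein of that tissue, read 9.82, 4.56, 3.19 and 50.7 CPM in 5xFAD-Dp16 and 6.11, 4.13, 3.08 and 2.02 CPM in wild-type libraries (2.14 ± 0.88, edgeR adjusted p = 0.877).

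The 4 mice with both genotypes did not carry the change to the same degree. In 73 of the 87 higher genes both 5xFAD-Dp16 females read above both 5xFAD-Dp16 males, whereas over all genes tested this held in 2887 (16.4%). Both males read above both females in 3 of the 87. Replicate 1, a female, was the highest 5xFAD-Dp16 library in 58 of the 87 genes and replicate 4, the other female, in 24, while replicate 3, a male, was the lowest in 61 and replicate 2, the other male, in 17. The median deviation from the group mean over the 87 genes was 0.47 and 0.32 on the log2 scale in the 2 females and -0.26 and -0.56 in the 2 males. In the 4 wild-type libraries the medians lay between -0.11 and 0.05. Both females read above both males in 44 of the 87 genes in 5xFAD cortex (29.3% of all genes tested), in 13 in Dp16 cortex (9.43% of all genes tested) and in 13 in wild-type cortex (7.01% of all genes tested).

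The 87 genes were chosen as higher in these same libraries, so the direction within each sex is fixed by the choice and only the sizes are described. Within females the median log2 difference of the 87 genes between 5xFAD-Dp16 and wild-type was 1.93 (quartiles 1.51 and 2.37), and within males it was 1.16 (0.87 and 1.54). The test of the difference itself, males minus females, gave an estimate below 0 in 76 of the 87 with a median of -0.74, and an unadjusted p under 0.05 in 19. Over all genes tested 410 (2.34%) reached an unadjusted p under 0.05, none (0.0%) was called by edgeR (smallest adjusted p = 0.973), and DESeq2 called none, with 576 at an unadjusted p under 0.05. With a term for the length slope, 1055 genes reached an unadjusted p under 0.05 for this difference in edgeR, and 0 were called. The 2 wild-type females had the highest and the lowest length slope of that group, 0.281 and -0.439. The sizes within females therefore rest in part on wild-type replicate 3, and are not given without it. With 2 animals of each sex, sex and individual cannot be told apart. The choroid plexus level also split by sex, although not in the same order of replicates: its sum was 1177 and 3107 CPM in the females and 229 and 272 CPM in the males, and its part in the result was not tested.

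**Figure D5:**
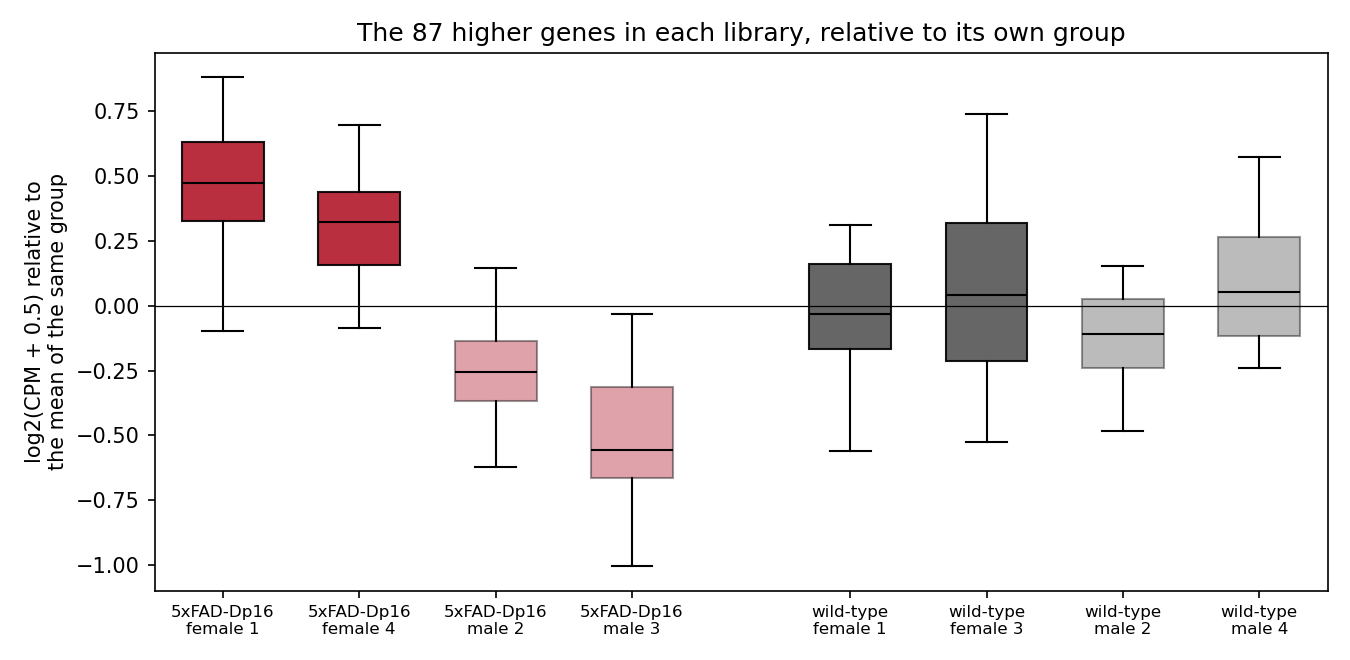
Deviation of the 87 higher genes from their own group's mean in each library, on the scale log2(CPM + 0.5), with boxes at the quartiles and whiskers from the 5th to the 95th percentile. The 5xFAD-Dp16 females lie above 0 (medians 0.47 and 0.32), the 5xFAD-Dp16 males below it (-0.26 and -0.56), and the wild-type libraries near it.

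Values for the single genotypes stand beside these results; the comparisons share libraries. Cst7 averaged 67.1 ± 35.4 CPM in 5xFAD-Dp16, 131 ± 45.5 CPM in 5xFAD, 0.509 ± 0.70 CPM in Dp16 and 0.753 ± 0.58 CPM in wild-type cortex (SD, n = 4 each). Gfap averaged 1212 ± 427, 1863 ± 434, 303 ± 165 and 222 ± 45.3 CPM in that order, Trem2 115 ± 43.7, 179.7 ± 31.7, 26.7 ± 8.40 and 29.0 ± 12.8 CPM, and Cd74 24.4 ± 16.9, 60.0 ± 34.7, 4.44 ± 1.35 and 3.33 ± 1.33 CPM. In all 4 genes the 5xFAD-Dp16 mean lay below the 5xFAD mean. Set directly against 5xFAD, the estimate in 5xFAD-Dp16 was below 0 for 76 of the 88 genes, with 25 lower and 6 higher at an unadjusted p under 0.05. Over all genes tested the median of that estimate was 0.0, and 631 genes (3.59%), higher and lower together, reached an unadjusted p under 0.05. Of all genes 1 (0.0057%), nonagouti, passed that comparison with edgeR. Set against Dp16, 68 genes (0.387%) passed, and 50 of the 88 were among them.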

How the data were processed

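Polyadenylated RNA of mouse brain cortex was sequenced from 16 mice. Per the labels' protocols, RNA was extracted with TRIzol and made into strand-specific libraries (Tecan/Nugen Universal Plus mRNA kit) sequenced as paired ends. Per the submitters' processing notes, the build was GRCm38 and the tools included HTSeq 0.6.1, HISAT2 2.1.0, SAMtools 1.5, FastQC 0.11.5 and bcl2fastq. No source used here gives the strand setting of the counting, so antisense and overlapping genes have uncertain values. The authors deposited raw counts and RPKM values for 55385 genes; dividing one by the other gave whole-number gene lengths within 8.5e-09, so the deposited RPKM values are the counts rescaled. Total counts were 16874481 to 22912168 per library.

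Groups, sexes and replicate numbers came from the labels. Differences were tested by quasi-likelihood in edgeR 4.0.16 (R 4.3.3), on the counts, with TMM scaling, filterByExpr (minimum count 10), robust dispersions and a term for sex, over all 16 libraries; a gene was called at a Benjamini-Hochberg adjusted p under 0.05 over 17555 genes. It was tested on simulated counts. Alternatives were DESeq2 1.42.0, limma 3.58.1 on log2(RPKM + 0.1) and log2(RPKM + 1), voom with sample weights, other scaling, filter, sex, block and length terms, and leaving out libraries. The length slope is the coefficient from regressing each library's deviation in log2 CPM on the log2 of gene length. Coordinates came from GENCODE M21 by identifier (241 genes had no match), promoters from RefSeq; of several windows for a gene the first listed was used. The 38 lists held 774 symbols: 771 matched by name, 2 by synonym and 1 not at all, and 732 were tested.

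Any called gene could be named. Values per library were given for Thy1, App, the 12 higher genes that changed most among those without overlap whose mean log2 CPM was 1 or more, the 12 of smallest p, the lower genes, the called segment genes and the list members of smallest p. Not every gene the rule selects is reported. The comparison, lists and rule were chosen with earlier results of these data known. Genes of very low wild-type count, overlapping genes and genes at odds with their group were described after their values were seen.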

Additional observations from a re-analysis of the deposited data

Results flagged for a closer look

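In each group of 4 libraries, the gap between the highest or lowest library and its nearest neighbour was divided by the group's range and set against Dixon's 95% critical value. Of 180 groups over 90 genes, 16 passed. A group with the same value in all 4 libraries, as for Atp6v0d2 in wild-type cortex, could not pass. Chance alone gives about 1 in 20 groups where values are normal and groups independent. The genes share the same libraries, so their groups are not independent and the rate is a rough guide only.

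In 5xFAD-Dp16 cortex, Ifnar2 read 40.4 CPM in replicate 1, far above the other 3 libraries (gap over range 0.92). Nonagouti read 3.71 CPM in replicate 2 (0.923) and Gpr65 read 2.19 CPM in replicate 4 (0.871), each above the other 3.

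In wild-type cortex, replicate 3 read far above the other 3 libraries for Gfap at 289.8 CPM (0.934), C1qa at 155 CPM (0.92), Cd52 at 6.10 CPM (0.929), Ctsd at 433 CPM (0.845), C1qb at 136 CPM (0.863), Fcer1g, a signalling chain of Fc receptors, at 22.6 CPM (0.894), Ly86 at 35.4 CPM (0.834) and Cxcl16 at 4.83 CPM (0.902). The same library read far below the others for Lag3 at 4.71 CPM (0.834). Replicate 4 stood alone for nonagouti at 0.094 CPM (1.0) and for Milr1 at 0.611 CPM (0.882), and replicate 1 for Gpr65 at 0.176 CPM (1.0) and Ctse at 0.0588 CPM (1.0). In nonagouti, Gpr65 and Ctse the other 3 wild-type libraries had no count, which fixes the ratio at 1, so these 3 of the 16 say nothing against the chance rate.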

How the results depend on the processing

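The count of 88 called genes varied between settings: DESeq2 gave 228, no low-count filter 258, the length slope 358, leaving out the 3 libraries of lowest slope 175, voom with weights 510, and a fit of the 8 libraries alone 9, which are Gfap, Itgax, Cst7, Clec7a, C4b, Serpina3n, Tnfsf8, nonagouti and Ifi204. All of these but Ifi204 passed in all 19 alternatives run. Of the 88 genes, 26 were lost only in the fit of the 8 libraries, and none changed sign in any alternative. Whichever of the 8 compared libraries was left out, 35 of the 88 were kept. Libraries of 5xFAD and Dp16 were not left out singly for this comparison. Leaving out 1 of the 8 compared libraries in turn gave 40 to 106 genes: 49, 62, 80 and 46 without 5xFAD-Dp16 replicates 1 to 4, and 40, 43, 106 and 84 without wild-type replicates 1 to 4.

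Of the segment genes 7 were called, with 18 by DESeq2, none in the fit of the 8 libraries (34 at an unadjusted p under 0.05), 54 with the slope, 29 without the 3 libraries of lowest slope, 43 by voom and 11 on log2(RPKM + 0.1). With 1 of the 8 compared libraries left out 2 to 14 were called. Against 5xFAD the count of 1 became 27 by DESeq2, 42 with no filter, 20 with only those groups, 122 with the slope, 15 without the 3 libraries of lowest slope and 42 by voom. It stayed at 1 with any single library of the compared groups left out. Against Dp16 the count of 68 became 179 by DESeq2, 236 with no filter, 44 with only those groups, 212 with the slope and 222 by voom. It was 22 to 76 with 1 library of the compared groups left out. For the difference between the sexes, no filter gave 15 in place of 0. The cause was not tested.

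For Myoc the adjusted p ran from 1.08e-05 to 0.172.

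Replicate numbers gave no steady pairing of the samples. Same-numbered 5xFAD-Dp16 and wild-type libraries correlated at 0.11, 0.08, -0.35 and 0.06 in their deviations from the group means. The values were 0.13, 0.32, 0.1 and -0.03 against 5xFAD, and 0.03, -0.1, -0.17 and -0.01 against Dp16. With a replicate block, 73 genes were called, 5 of the segment, 1 against 5xFAD and 60 against Dp16. Of 722 pairs of a list and an alternative, the called count was within 1.5 times the main one in 536. Genes of a few counts, such as Ctse, are limited by depth.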
